A study of Mus musculus with 6 samples.

Results

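The Notch genes described here are 4 receptor genes (Notch1, Notch2, Notch3 and Notch4), 3 ligand genes (Jag1, Jag2 and Dll1) and 3 genes that active Notch is known to switch on (Hes1, Hey1 and Heyl). They were taken by name, through GENCODE M21, from the 48526 Ensembl genes counted in each library, and all 10 were found. RNA was sequenced from 6 cultures of primary renal tubular epithelial cells grown from mouse kidney cortex. KO cultures (3 libraries) came from Setd2(F/F)Ksp-Cre+ mice, in which Cre is driven by the promoter of the tubule cadherin gene Cdh16 (Ksp-cadherin) and both Setd2 alleles are floxed. WT cultures (3 libraries) came from littermate Setd2(F/F) mice, which carry the same floxed alleles without Cre. Setd2 encodes the methyltransferase that trimethylates lysine 36 of histone H3. All mice were 4 to 5 weeks old, and every culture medium held 20 ng/ml EGF and 100 nM hydrocortisone. Cre marked all KO cultures and no WT culture, so effects of Cre and of losing Setd2 cannot be told apart.

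Notch signaling passes between touching cells. A Jagged or Delta-like ligand on a neighbouring cell binds a Notch receptor, ADAM proteases and then gamma-secretase cleave the receptor, and its intracellular domain enters the nucleus, where it joins the DNA-binding protein RBPJ and Mastermind to activate genes such as Hes1, Hey1 and Heyl. In the kidney, Notch2 is known for its part in forming proximal nephron segments, and Jag1 and the Notch receptors are known to be active in injured tubules. Notch4 and Dll4 are known best from endothelium, and Notch3 from pericytes and vascular smooth muscle.

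The libraries held 86078636 to 106974842 counted reads. Levels below are CPM, read counts scaled to library size with TMM factors that also correct for library composition. Setd2 was at 163, 154 and 158 CPM in KO replicates 1 to 3 and at 185, 168 and 152 CPM in WT replicates 1 to 3; the counts add up all exons, so they do not check the floxed deletion. Xist, which coats the inactive X, stood at 507 and 606 CPM in KO replicates 2 and 3, against 0.386 CPM in KO replicate 1 and 0.348 to 0.683 CPM in WT, so sex and genotype partly coincided. The tubular markers Cdh16 (926, 910 and 815 CPM in KO; 748, 709 and 748 CPM in WT) and Epcam (386, 364 and 379 CPM in KO; 411, 445 and 409 CPM in WT) were abundant everywhere. Whether replicates are separate animals is not in the labels, so the p-values measure spread among libraries that may be partly technical. In bulk RNA, fewer cells of a type and less RNA per cell cannot be told apart.

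Promoter windows from RefSeq (GRCm38.p6, 250 bases before to 50 after a start site) were at hand for 7 of the 10 genes; Hes1, Hey1 and Heyl had none. The windows of the receptors that rose and of the ligands that fell are shown 5′ to 3′, on the strand of the gene, to set their sequences beside the values. Capitals mark matches on either strand to a GC box (GGGCGG), to the AP-1 motif (TGANTCA) or to the RBPJ core (TGGGAA); no capitals of different motifs overlap. The windows are chr17:34564045-34564344 on the plus strand for Notch4, and chr17:32166841-32167140, chr2:137116471-137116770 and chr17:15376883-15377182 on the minus strand for Notch3, Jag1 and the more upstream of 2 start sites of Dll1.
Notch4: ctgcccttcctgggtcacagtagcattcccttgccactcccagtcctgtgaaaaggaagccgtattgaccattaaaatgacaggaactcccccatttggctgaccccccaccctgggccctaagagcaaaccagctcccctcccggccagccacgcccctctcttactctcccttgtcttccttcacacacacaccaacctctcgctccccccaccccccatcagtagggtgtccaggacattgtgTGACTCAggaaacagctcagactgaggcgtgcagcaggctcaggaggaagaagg
Notch3: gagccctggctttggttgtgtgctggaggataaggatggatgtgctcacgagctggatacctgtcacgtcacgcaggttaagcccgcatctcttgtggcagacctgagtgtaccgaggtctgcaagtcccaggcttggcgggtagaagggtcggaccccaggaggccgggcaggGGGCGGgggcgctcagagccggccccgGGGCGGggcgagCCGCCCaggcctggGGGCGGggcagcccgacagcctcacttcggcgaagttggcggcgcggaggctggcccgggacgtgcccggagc
Jag1: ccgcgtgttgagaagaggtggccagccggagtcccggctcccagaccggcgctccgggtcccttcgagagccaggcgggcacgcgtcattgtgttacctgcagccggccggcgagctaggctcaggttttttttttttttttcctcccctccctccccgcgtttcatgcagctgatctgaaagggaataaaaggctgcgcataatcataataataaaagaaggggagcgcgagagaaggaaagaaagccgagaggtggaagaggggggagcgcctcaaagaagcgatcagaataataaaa
Dll1: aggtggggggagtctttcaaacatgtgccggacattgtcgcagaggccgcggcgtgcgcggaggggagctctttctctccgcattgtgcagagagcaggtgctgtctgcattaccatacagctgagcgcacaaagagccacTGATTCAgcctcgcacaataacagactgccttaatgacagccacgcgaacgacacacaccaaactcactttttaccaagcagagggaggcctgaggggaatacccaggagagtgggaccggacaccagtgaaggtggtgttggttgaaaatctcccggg

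The Notch4 window had 5 CpG pairs and no GC box, with an AP-1 match whose first base lies 4 bases before the start site (position -4). The Notch3 window had 25 CpG pairs and 4 GC boxes, from -76 to -23. Across all 32851 RefSeq windows of this length the median number of CpG pairs was 7, and 35.7% held a GC box, 7.81% an AP-1 match and 25.6% an RBPJ core. The Jag1 window, with 22 CpG pairs, held none of the 3 motifs. The Dll1 window shown had 15 CpG pairs and an AP-1 match at -109, and the other Dll1 window had 24 CpG pairs and no match. Among the windows not shown, Notch1 had 5 GC boxes, Notch2 had 7 and Jag2 had 5. No RBPJ core was found in the windows of these 7 genes, which says only that these letters are not in these windows.

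Of the 10 Notch genes, 3 rose in KO (Notch3, Notch4 and Heyl), 2 fell (Jag1 and Dll1) and 5 did not pass the test. All 10 passed the filter on low counts. A call means a Benjamini-Hochberg adjusted p below 0.05 in edgeR's quasi-likelihood test over 17571 tested genes. Of all tested genes 21.0% were called, 12.0% as higher in KO and 9.08% as lower. The median log2 fold change was 0.09 over the 10 genes and -0.01 over all tested genes. KO and WT values did not overlap for 8 of the 10 genes, 4 with all KO above all WT and 4 with all KO below, where 41.9% of all tested genes had groups without overlap (20.6% above and 21.3% below).

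**Figure D1:**
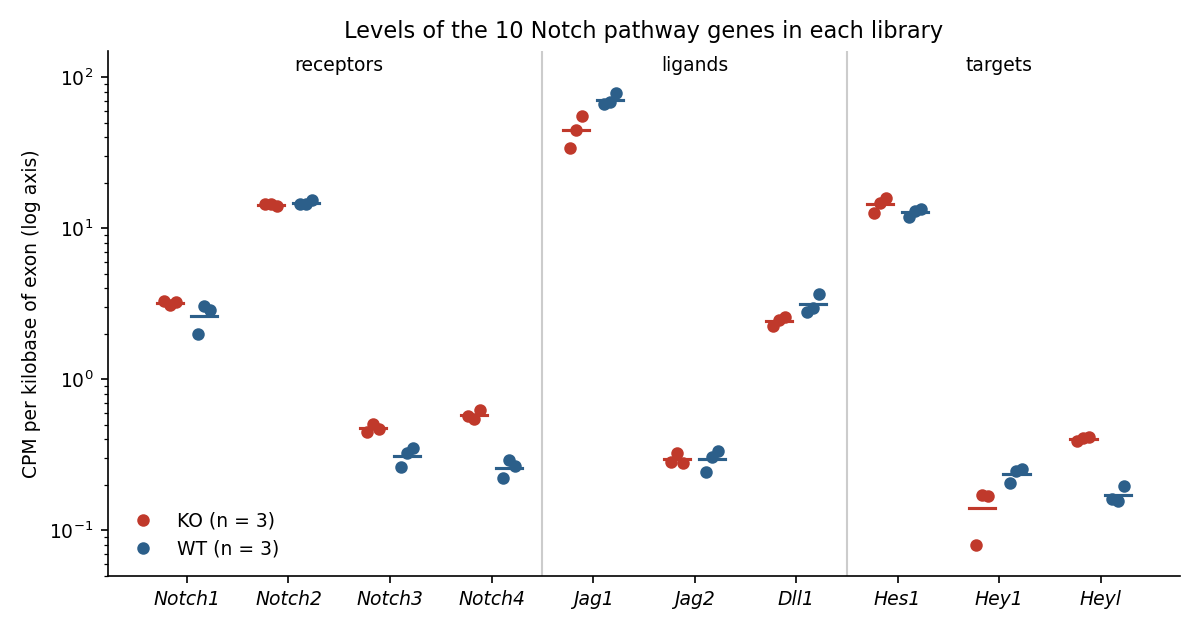
Level of each gene in every library as CPM per kilobase of exon on a log axis; points are libraries (3 KO, red, and 3 WT, blue) and lines are group means. Jag1 lies highest in both groups, at a mean of 44.7 in KO and 71.0 in WT, and Notch4 and Heyl are the genes whose KO points stand farthest above their WT points.

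Divided by exon length, which allows levels of different genes to be compared, Jag1 was the most abundant of the 10 genes in both groups, at 44.7 ± 10.4 CPM per kilobase in KO and 71.0 ± 6.49 in WT (SD, n = 3 each). In KO it was followed by Hes1 (14.4 ± 1.72) and Notch2 (14.3 ± 0.16), whose libraries overlapped, and then by Notch1 (3.21 ± 0.11) and Dll1 (2.44 ± 0.18), which did not overlap. Below 1 CPM per kilobase in KO came Notch4 (0.58), Notch3 (0.47), Heyl (0.40), Jag2 (0.30) and Hey1 (0.14), each without overlap with the next. In WT the order was Jag1, Notch2 (14.8 ± 0.53), Hes1 (12.8 ± 0.87), Dll1 (3.14 ± 0.48) and Notch1 (2.64 ± 0.56), with Dll1 and Notch1 overlapping. Notch3, Jag2, Notch4 and Hey1 (0.31, 0.29, 0.26 and 0.24 CPM per kilobase in WT) overlapped each with the next, and Heyl was lowest at 0.17. Thus Heyl was the lowest of the 10 in WT and eighth of 10 in KO, above Jag2 and Hey1. The lengths join the exons of every annotated transcript, 14232 bases for Notch1, so the level of a gene with many isoforms is understated.

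Among the receptors, Notch4 (ENSMUSG00000015468, chromosome 17, 34564268 to 34588503) changed most. It was at 4.64, 4.38 and 5.02 CPM in KO replicates 1 to 3 and at 1.795, 2.35 and 2.14 CPM in WT replicates 1 to 3. The lowest KO library was above the highest WT library, on 409 to 493 reads in KO and 155 to 250 in WT. The fold change was 2.23 (log2 1.15 ± 0.14, SE; edgeR adjusted p = 0.000403). Without the KO libraries high in Xist the log2 fold change was 1.14 (adjusted p = 0.0149 in edgeR), with the spread of the single KO library left taken from WT.

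Notch3 (ENSMUSG00000038146, chromosome 17, 32120820 to 32166852), the receptor of vascular mural cells, was at 3.61, 4.08 and 3.81 CPM in KO, against 2.12, 2.62 and 2.82 CPM in WT. The groups did not overlap, and the log2 fold change was 0.60 ± 0.14 (SE; edgeR adjusted p = 0.0138). The call ended without KO replicate 2 (log2 fold change 0.56, adjusted p = 0.0501 in edgeR). It also ended with a term for the KO libraries high in Xist (0.516, adjusted p = 0.166 in edgeR). Without both of those libraries the log2 fold change was 0.52.

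Notch2 (ENSMUSG00000027878, chromosome 3, 98013527 to 98150361) was the main receptor and did not pass the test. It was at 155, 156 and 152 CPM in KO and at 156, 156 and 166 CPM in WT. Every KO value was below every WT value, but by little: the log2 fold change was -0.05 ± 0.07 (SE; edgeR adjusted p = 0.652). Notch1 (ENSMUSG00000026923, chromosome 2, 26457903 to 26516663) was at 47.1, 44.0 and 45.9 CPM in KO and at 28.6, 43.3 and 41.0 CPM in WT. Its KO libraries lay close together and just above WT replicates 2 and 3, while WT replicate 1 stood lower. The log2 fold change was 0.28 ± 0.13 (SE; edgeR adjusted p = 0.145), and 0.13 without WT replicate 1 (adjusted p = 0.22 in edgeR).

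The 4 receptors together were at 18.7, 18.6 and 18.5 CPM per kilobase in KO and at 16.97, 18.1 and 18.9 in WT, so the groups overlapped. Within that sum, Notch2 took 76.9%, 77.7% and 76.6% in KO and 85.3%, 79.8% and 81.5% in WT. The KO libraries all lay below the WT libraries, a mean difference of -5.17 percentage points (77.05% ± 0.58 in KO and 82.2% ± 2.82 in WT; SD, n = 3 each). An exact two-sided permutation test gave p = 0.1, the smallest that 3 against 3 libraries allow. Notch4 held 2.93% to 3.38% of the sum in KO and 1.31% to 1.61% in WT, and Notch3 held 2.38% to 2.71% in KO and 1.54% to 1.84% in WT. Notch1 held 16.7% to 17.7% in KO and 11.8% to 16.8% in WT, with overlap.

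**Figure D2:**
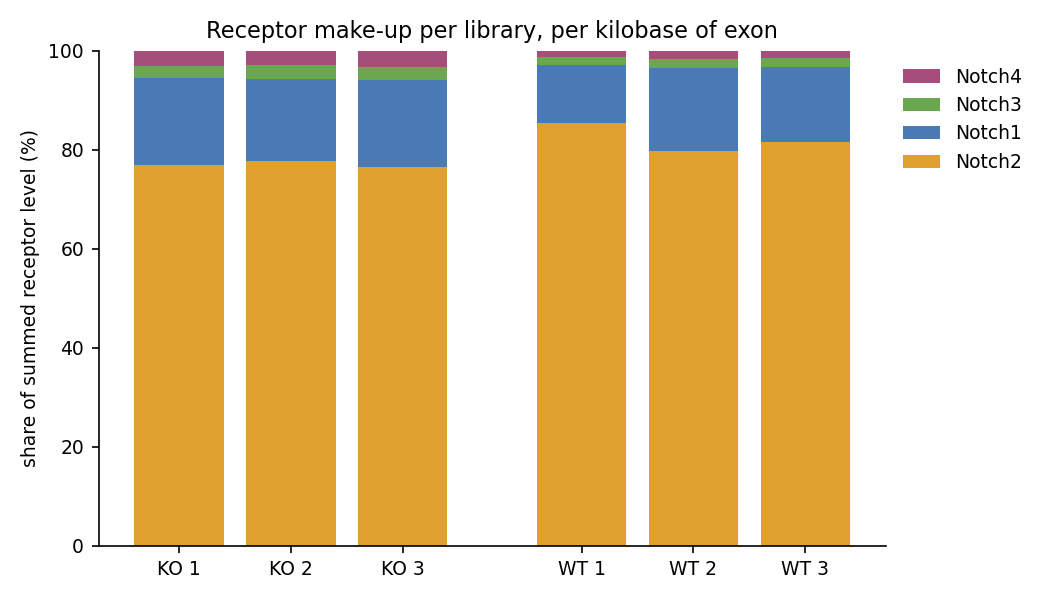
Share of each receptor in the summed receptor level (CPM per kilobase, percent) in KO libraries 1 to 3 and WT libraries 1 to 3. Notch2 makes up 76.6% to 77.7% of the bar in KO and 79.8% to 85.3% in WT, and the Notch3 and Notch4 segments are larger in every KO library than in any WT library.

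Among the ligands, Jag1 (ENSMUSG00000027276, chromosome 2, 137081456 to 137116644) made up most of the summed level and fell. It was at 200, 261 and 321 CPM in KO replicates 1 to 3 and at 387, 397 and 457 CPM in WT replicates 1 to 3. No KO library reached the lowest WT library, and the KO libraries were spread more widely than those of WT, with KO replicate 1 lowest. The level fell to 0.63 of that in WT (log2 fold change -0.67 ± 0.14, SE; edgeR adjusted p = 0.00772). The log2 fold change was -0.49 without KO replicate 1 (adjusted p = 0.0278 in edgeR) and -1.05 without the KO libraries high in Xist (adjusted p = 0.00348).

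Dll1 (ENSMUSG00000014773, chromosome 17, 15367354 to 15376872), a Delta-like ligand, was at 9.45, 10.4 and 11.0 CPM in KO and at 11.7, 12.5 and 15.5 CPM in WT. The groups did not overlap, and the log2 fold change was -0.37 ± 0.12 (SE). Its edgeR adjusted p of 0.0492 lay at the threshold, and the call was lost in 10 of 14 alternative settings, among them the omission of WT replicate 3 (log2 fold change -0.24, adjusted p = 0.137 in edgeR), of WT replicate 2 (-0.41, adjusted p = 0.0794) or of any KO library (-0.42 to -0.29, adjusted p from 0.0825 to 0.208). Jag2, at 1.98, 2.25 and 1.96 CPM in KO and 1.70, 2.14 and 2.32 CPM in WT, overlapped between groups with a log2 fold change of 0.005 ± 0.16 (SE; edgeR adjusted p = 0.987). Summed over the 3 ligands, the level was 36.8, 47.6 and 57.9 CPM per kilobase in KO and 69.4, 71.4 and 82.5 in WT. Jag1 made up 93.1% to 95.0% of this sum in KO and 95.1% to 95.7% in WT.

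The 3 targets did not move together. Heyl (ENSMUSG00000032744, chromosome 4, 123233556 to 123249875), a bHLH repressor, was at 1.98, 2.08 and 2.11 CPM in KO and at 0.82, 0.80 and 1.00 CPM in WT. The KO libraries lay close together and all above WT, on 175 to 207 reads in KO and 71 to 97 in WT. The fold change was 2.35 (log2 1.23 ± 0.17, SE; edgeR adjusted p = 0.000705), and the log2 value was 1.18 without the KO libraries high in Xist (adjusted p = 0.0265 in edgeR).

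Hes1 (ENSMUSG00000022528, chromosome 16, 30064384 to 30067796), the bHLH repressor best known as a direct Notch target, was at 25.6, 29.8 and 32.5 CPM in KO and at 24.1, 26.7 and 27.4 CPM in WT. KO replicate 1 lay within the WT range and the other KO libraries above it. The log2 fold change was 0.17 ± 0.10 (SE; edgeR adjusted p = 0.255). Without the KO libraries high in Xist it was -0.03.

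Hey1 (ENSMUSG00000040289, chromosome 3, 8663359 to 8667256), a close relative of Heyl, was at 0.26, 0.56 and 0.55 CPM in KO and at 0.67, 0.81 and 0.83 CPM in WT. Every KO value was below every WT value, on 23 to 54 reads in KO and 58 to 86 in WT. Its log2 fold change was -0.75 ± 0.28 (SE; edgeR adjusted p = 0.0765), so it was not called. KO replicate 1 was lowest: the log2 fold change was -0.46 without it, and -1.56 (adjusted p = 0.0382 in edgeR) without the KO libraries high in Xist. Hes1 made up 96.2% to 96.5% of the summed level per kilobase of the 3 targets in KO and 96.8% to 97.0% in WT. The remainder was mostly Heyl in KO (2.49% to 2.98%, with Hey1 at 0.61% to 1.12%) and mostly Hey1 in WT (1.69% to 1.84%, with Heyl at 1.16% to 1.41%).

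Some members share exon bases with other annotated genes, and whether counting used the strand is not given in the sources used here. Notch1, Notch3 and Dll1 have noncoding partners on the opposite strand and Notch2 has one on its own strand. These partners were counted at 0 to 66 reads per library, the highest being A930024N18Rik beside Dll1. Notch4, Jag1, Jag2, Hes1, Hey1 and Heyl share no exon bases with another gene.

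Notch4, Heyl and Notch3 are also known from vessels, so vascular markers are given beside them. Some of these markers were higher in KO and others were not. Of 16 endothelial markers, 9 rose in KO and none fell, where 12.0% of all tested genes were called as higher and 9.08% as lower. Cdh5 (VE-cadherin) was at 10.1, 6.90 and 5.84 CPM in KO and 4.47, 3.62 and 4.01 CPM in WT (log2 fold change 0.92, edgeR adjusted p = 0.00587). The other abundant endothelial markers, Flt1 (a VEGF receptor) and Eng (endoglin), were not called, with log2 fold changes of 0.27 and 0.11. The 16 markers summed to 47.6, 38.1 and 34.0 CPM in KO and to 23.4, 24.7 and 23.6 CPM in WT, a ratio of 1.67 (exact two-sided permutation p = 0.1), and none was at 0 in all libraries.

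Notch4 per 100 CPM of these summed markers was 9.74, 11.5 and 14.8 CPM in KO and 7.68, 9.51 and 9.10 CPM in WT, a ratio of 1.37 without overlap (exact permutation p = 0.1). Heyl per 100 CPM of them was 4.17, 5.46 and 6.19 CPM in KO and 3.52, 3.23 and 4.27 CPM in WT, with overlap (exact permutation p = 0.2). Such ratios, here and for the next marker list, were chosen after the values were seen. Single markers moved by more or less than their sum: the median log2 fold change of the 16 was 0.96, against -0.008 over all tested genes. The denominator of the Notch4 and Heyl ratios includes the abundant Flt1 and Eng, whose log2 fold changes of 0.27 and 0.11 lay below that median. Ratios to the markers without Flt1 and Eng were not computed, so the lack of overlap in the Notch4 ratio is given for the full sum only. A rise of Notch4 or Heyl beyond endothelial content was not tested.

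Of 10 tested pericyte and smooth muscle markers, 4 rose and 1 fell (12.0% and 9.08% over all tested genes), with a median log2 fold change of 0.74. Those that rose were Cspg4 (the NG2 proteoglycan, log2 fold change 1.32, edgeR adjusted p = 0.000231), Rgs5 (a regulator of G protein signalling in pericytes, 1.11, adjusted p = 0.0047), Pdgfrb (the PDGF receptor beta, 0.91, adjusted p = 0.00302) and Myh11 (smooth muscle myosin, 0.71, adjusted p = 0.0242). These values are all above the 0.60 of Notch3, and that of Cspg4 is also above the 1.23 of Heyl; the differences between genes were not tested. Cspg4 was at 8.50, 7.88 and 8.65 CPM in KO and at 2.64, 3.31 and 4.06 CPM in WT, without overlap. The summed level of the list ran from 115 to 185 CPM in KO and from 120 to 158 CPM in WT and overlapped (exact permutation p = 0.6), resting largely on Acta2 and Tagln, contractile genes that were not called (log2 fold changes 0.09 and 0.02). Mylk, the myosin light chain kinase gene, was the one that fell, by 0.41 on the log2 scale (edgeR adjusted p = 0.0263). Per 100 CPM of this sum, Notch3 was at 2.16, 3.54 and 2.06 CPM in KO and 1.77, 1.65 and 1.94 CPM in WT, and Heyl was at 1.19, 1.81 and 1.14 CPM in KO and 0.69, 0.51 and 0.69 CPM in WT, both without overlap (exact permutation p = 0.1 for each). The denominator of both ratios is mostly Acta2 and Tagln. Ratios to the markers without these genes were not computed, so the lack of overlap is given for the full sum only. A rise of Notch3 or Heyl beyond pericyte and smooth muscle content was not tested.

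Sums were also higher in KO for podocyte (154 to 190 CPM in KO, 96.6 to 99.3 in WT) and leukocyte markers (42.2 to 50.7 CPM in KO, 28.3 to 33.5 in WT), with exact permutation p = 0.1 for both. Of 7 podocyte markers 4 rose, of 8 leukocyte markers 3 rose, and none of either list fell. For these counts and those that follow, the share over all tested genes was 12.0% higher and 9.08% lower. Fibroblast markers ran from 24.4 to 42.9 CPM in KO and from 15.7 to 25.9 CPM in WT, with overlap, and 3 of 5 tested members rose. The tubular markers summed to 7410 to 7484 CPM in KO and 6453 to 7495 CPM in WT; 2 of 8 rose. The part of other cell types in the levels of Notch4, Notch3 and Heyl was not tested.

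**Figure D3:**
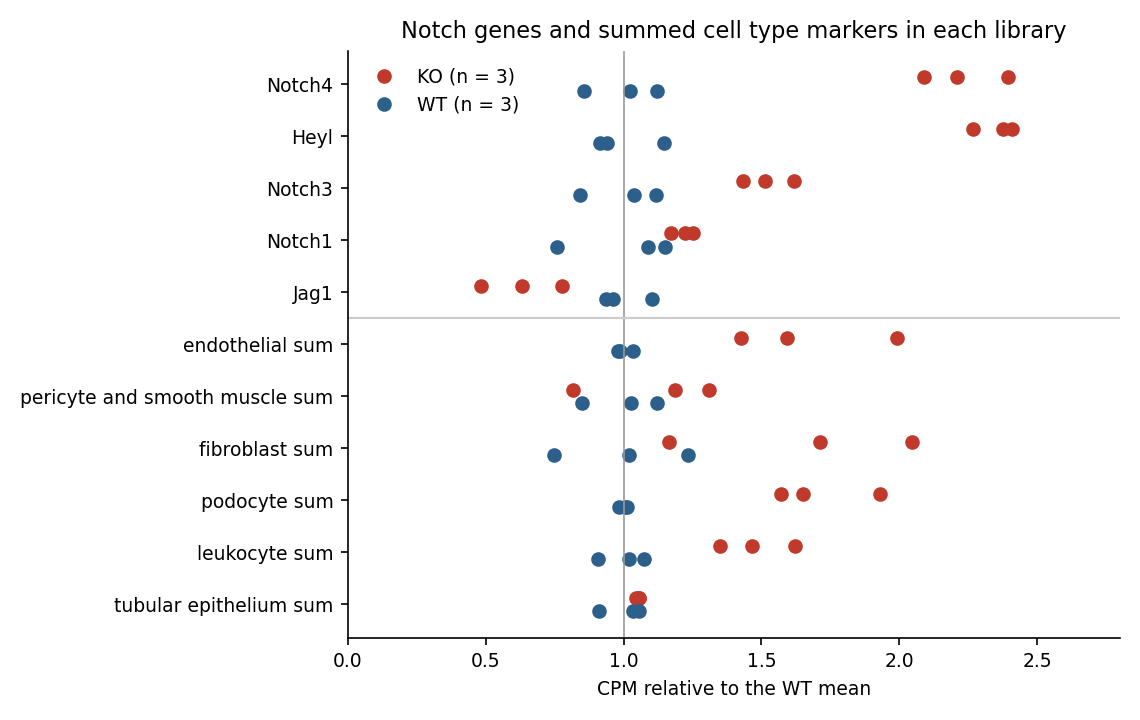
CPM in each library relative to the WT mean for 5 Notch genes (above the grey line) and for the summed markers of 6 cell types (below it); red points are KO libraries and blue points WT libraries, 3 each. Notch4 and Heyl lie at 2.09 to 2.41 times the WT mean in KO, the endothelial sum at 1.43 to 1.99 times, and Jag1 at 0.48 to 0.78 times.

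Across the rest of the pathway, 55 genes in 8 lists were examined, of which 47 passed the filter on low counts. Of these 2 rose and 6 fell in KO, with a median log2 fold change of 0.03; the share called was close to the 21.0% of all tested genes. The genes that fell included enzymes that put sugars on the receptor. Poglut1, which adds O-glucose to Notch, was at 39.7, 41.5 and 38.8 CPM in KO and at 59.3, 52.3 and 54.1 CPM in WT (log2 fold change -0.46 ± 0.08, SE; edgeR adjusted p = 0.00248). Pofut1, which adds O-fucose, fell to 29.5 ± 1.90 CPM in KO, against 36.1 ± 1.62 CPM in WT (SD, n = 3 each). Lfng (Lunatic fringe), which extends that fucose, was at 7.41 ± 1.29 CPM in KO and 10.9 ± 2.09 CPM in WT, with overlapping libraries (edgeR adjusted p = 0.028). The other fringes Mfng and Rfng had log2 fold changes of 1.42 and 0.35 and were not called (edgeR adjusted p = 0.0779 and 0.0933). The calls of Poglut1, Lfng and Pofut1 ended without both KO libraries high in Xist (adjusted p = 0.0984, 0.128 and 0.197 in edgeR), and those of Lfng and Pofut1 also with a term for those libraries (0.128 and 0.117), without KO replicate 1 (0.127 and 0.15), WT replicate 2 (0.115 and 0.0751) or WT replicate 3 (0.0507 and 0.062), that of Lfng also without KO replicate 2 (0.0931) and that of Pofut1 without KO replicate 3 (0.104).

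Within the nuclear part of the pathway, Maml3 (a Mastermind coactivator) rose to 8.06 ± 1.13 CPM in KO, against 5.79 ± 0.50 CPM in WT, and Crebbp (the acetyltransferase CBP) to 72.2 ± 2.98 CPM, against 61.2 ± 3.91 CPM (SD, n = 3 each). The edgeR adjusted p-values were 0.0227 for Maml3 and 0.046 for Crebbp. Rbpj itself was at 97.4, 92.8 and 94.5 CPM in KO and 116, 115 and 96.2 CPM in WT, with a log2 fold change of -0.20 ± 0.08 (SE; edgeR adjusted p = 0.101). Of the 8 corepressors examined that bind RBPJ or its partners, 1 fell and 7 were not called. The one that fell was Fhl1, of which an isoform binds RBPJ, at 23.3 ± 3.02 CPM in KO and 31.7 ± 0.93 CPM in WT (SD, n = 3 each; edgeR adjusted p = 0.0102). Leaving out KO replicate 1 ended the calls of Fhl1, Maml3 and Crebbp (adjusted p = 0.0624, 0.103 and 0.153 in edgeR), leaving out KO replicate 3 those of Maml3 and Crebbp (0.0788 and 0.114), and leaving out KO replicate 2, WT replicate 2 or WT replicate 3 that of Crebbp (0.0911, 0.0612 and 0.099). The calls of Maml3 and Crebbp also ended without both KO libraries high in Xist (0.0716 and 0.246) and with a term for them (0.0517 and 0.141), and that of Crebbp with no filter on low counts (0.0782).

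None of the 10 protease and gamma-secretase genes was called. Furin, which processes the receptor on its way to the surface, had a log2 fold change of 0.26 ± 0.11 (SE; edgeR adjusted p = 0.114), and Adam10, which makes the first ligand-induced cut, one of 0.03 ± 0.08 (adjusted p = 0.817). The ubiquitin ligases that prepare ligands for endocytosis were not called either, with Mib1 at 134 ± 8.94 CPM in KO and 159 ± 16.7 CPM in WT (SD, n = 3 each; edgeR adjusted p = 0.0624) and Neurl1b at 18.6 ± 2.79 CPM in KO and 18.8 ± 3.30 CPM in WT. Itch, a ligase that marks receptors for breakdown, was the 1 called gene of 7 negative regulators. It fell by 0.26 on the log2 scale (edgeR adjusted p = 0.0458), a call lost in 8 of 14 alternative settings, among them the omission of any library other than WT replicate 3 (adjusted p from 0.0578 to 0.18 in edgeR).

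Of the other Hes and Hey genes and feedback targets, 3 of 8 were tested. Hes6, a family member known as an antagonist of Hes1, fell to 12.9 ± 0.65 CPM in KO, against 17.5 ± 2.35 CPM in WT (SD, n = 3 each; log2 fold change -0.44, edgeR adjusted p = 0.0161), a call that ended without KO replicate 1 (-0.38, adjusted p = 0.093), without both KO libraries high in Xist (-0.53, adjusted p = 0.147) and with a term for those libraries (-0.53, adjusted p = 0.0903). Hey2 and Nrarp had log2 fold changes of 0.12 and 0.31 and were not called, and Hes5 had no read in any library. Of the other ligands, Dll4, the arterial endothelial ligand, was at 5.09, 8.13 and 9.19 CPM in KO and at 6.66, 10.6 and 11.6 CPM in WT. The libraries overlapped, and the log2 fold change was -0.36 ± 0.22 (SE; edgeR adjusted p = 0.266). It was -0.13 without KO replicate 1 (adjusted p = 0.716 in edgeR). Omitting WT replicate 3 gave -0.21 (0.553) and omitting WT replicate 1 gave -0.56 (0.0572). The value was -0.92 without the KO libraries high in Xist (0.103), and it passed with no filter on low counts (-0.38, adjusted p = 0.0183). Dlk2, a Delta-like protein without the usual receptor-binding domain, had a log2 fold change of 0.63 ± 0.32 (SE; edgeR adjusted p = 0.18) at 0.32 CPM in KO and 0.20 CPM in WT.

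**Figure D4:**
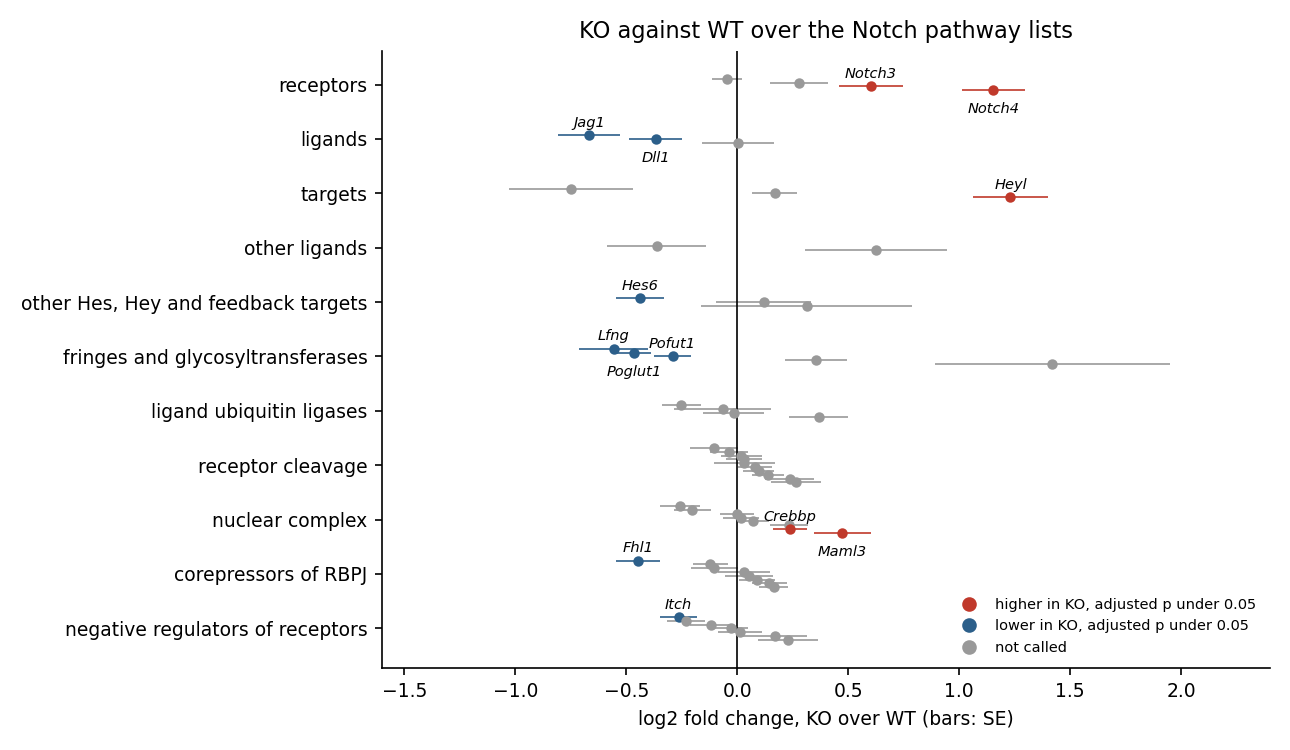
Log2 fold change of KO over WT, with its SE, for every tested gene of 11 pathway lists, the 3 lists of the 10 Notch genes at the top; red and blue points passed edgeR's quasi-likelihood test as higher and lower in KO, grey points did not. Called genes run from -0.67 (Jag1) to 1.23 (Heyl), and all 10 receptor cleavage genes lie between -0.10 and 0.26.

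Genes with the profile most like the leading receptor, ligand and target were found by the root-mean-square difference of log2 CPM over the 6 libraries, each gene centred on its own mean, among 8869 genes with a mean of at least 10 CPM. For Notch2, whose own values varied by 0.0384 (log2, root mean square), they were Desi1, Mtfr1l and Mettl2, at differences of 0.0143 to 0.0165. For Jag1, whose values varied by 0.405, they were Lurap1l (0.0919), Plac8 (0.115) and Zfp334 (0.122). For Hes1, whose values varied by 0.142, they were Mark4 (0.0435), Arrdc4 (0.0508) and Tle3 (0.0521).

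Leaving out libraries or changing the scaling, the filter or the test gave 14 alternative fits. Notch4 (log2 fold change 1.068 to 1.247), Heyl (1.17 to 1.34) and Jag1 (-1.05 to -0.49) were called in all 14, Notch3 (0.51 to 0.69) in 11 and Dll1 (-0.49 to -0.24) in 4. Of the genes that were not called, Hey1 passed the test in 4 alternatives, Notch1 in 1, and Notch2, Jag2 and Hes1 in none.

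**Figure D5:**
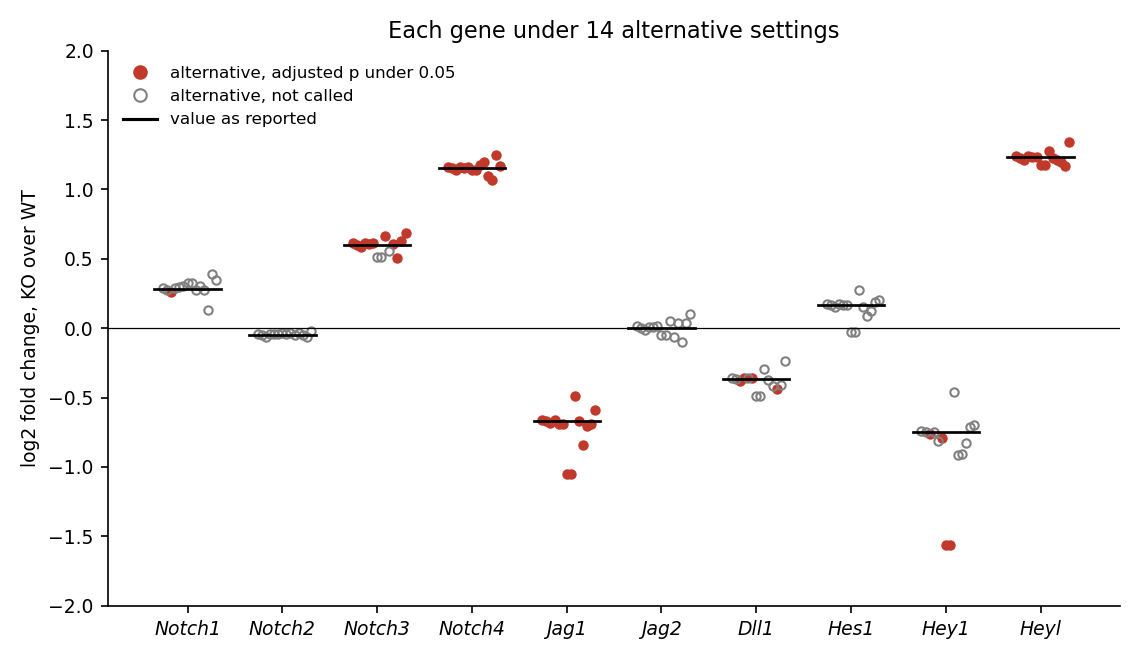
Log2 fold change of KO over WT for each of the 10 genes as reported (black line) and in 14 alternative fits (points; filled red, adjusted p below 0.05; open grey, not called). Notch4, Heyl and Jag1 have only filled points, and the points of Hey1 spread from -1.56 to -0.46.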

How the data were processed

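The authors deposited 1 table of raw read counts per Ensembl gene for each of 6 libraries, made from total RNA with a TruSeq kit, per the labels' protocols. Per the submitters' processing notes the tools were Trimmomatic 0.38, STAR 2.7.1a and HTSeq 0.11.2 and the build was mm10; annotation release, strandedness and handling of multimapped reads: not given in the sources used here. Groups and replicate numbers came from the sample titles. Symbols, GRCm38 coordinates and exon lengths came from GENCODE M21, which matched 48144 of 48526 genes; the other 382 held 0.0165% of counts. The edgeR 4.0.16 package (R 4.3.3) served to filter genes by filterByExpr (17571 kept), to scale libraries by TMM and to test KO against WT by quasi-likelihood, with Benjamini-Hochberg adjustment over all tested genes at 0.05. Each SE is the size of the log2 fold change divided by the root of F. The functions were tested on simulated counts.

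Notch genes, pathway lists, markers, tests and alternatives (DESeq2 1.42.0, limma 3.58.1, scalings, no filter, a replicate block, an Xist term, libraries left out) were chosen with earlier results of these data known. Named pathway genes are up to 4 called genes a list by smallest adjusted p, or the 2 most abundant where none was called. Named markers are the 3 most abundant of the endothelial list, the 3 most abundant of the pericyte and smooth muscle list, Cdh16 and Epcam. One gene of the pathway lists is not reported here and stands in none of their counts. Cspg4, Rgs5, Pdgfrb, Myh11, Rbpj, Mfng, Rfng, Hey2, Nrarp and Hes5 are named beside them, chosen after their values were seen. So are Cldn5, Kdr, Plvap, Robo4, Erg, Pecam1, Emcn, Egfl7 and Podxl. Replicate pairs differed by a chi-square of 22.7 to 77.1 per degree of freedom over genes, so none is a copy of another. Counting alone limits genes below about 1 CPM, such as Hey1 and, in WT, Heyl (mean 0.88 CPM). Promoters are RefSeq sequences (GRCm38.p6).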

Additional observations from a re-analysis of the deposited data

How the results depend on the processing

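Over all genes, 3698 calls became 1163 with a term for the libraries with Xist above 10 CPM, 907 without those libraries, and 1683 to 3766 when 1 library was left out (lowest without KO replicate 1, and 1933 without KO replicate 3). The 5 called Notch genes became 3 to 5 when 1 library was left out (3 without KO replicate 2). The 2 that fell became 1 with DESeq2's median-of-ratios factors, with library totals and with limma-voom, and 1 to 2 when 1 library was left out, since Dll1 was lost. The 8 called genes of the wider pathway became 13 with no filter beyond a total count of 1, 2 with the Xist term, 1 without the Xist-positive libraries, and 1 to 10 when 1 library was left out (1 without KO replicate 1, 5 without KO replicate 2, 4 without KO replicate 3 and 4 without WT replicate 2). The fall in the Notch2 share ran from -6.36 to -3.61 percentage points when 1 library was left out. The cause of these shifts was not tested. No scaling moved the median log2 fold change of all genes by over 0.1.

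Direction changed only in genes that were not called. Log2 fold changes ran from -0.101 to 0.099 for Jag2, -0.13 to 0.137 for Neurl1b and -0.044 to 0.107 for Adam10 when 1 library was left out. Jag2 was also below 0 with no filter (-0.012), with the Xist term (-0.051) and without the Xist-positive libraries (-0.052), as was Hes1 with that term (-0.028) and without those libraries (-0.029).

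Same-numbered KO and WT libraries did not deviate together (correlations of 0.038, -0.13 and 0.03). With deviations taken from means of only 3 libraries, this cannot exclude a pairing, and the labels do not say whether the numbers mark one. With the replicate number as a block, 3594 genes and 6 Notch genes were called, Hey1 among them (-0.789, adjusted p = 0.0459); of the named pathway genes, Dll4 (-0.366, adjusted p = 0.0312), Mib1 (-0.248, 0.0497) and Furin (0.279, 0.0416) gained a call with the block and Crebbp lost its own (0.238, 0.0624). With no filter, Notch1 (0.264, adjusted p = 0.0374), Hey1 (-0.765, 0.0209), Dll4 (-0.377, 0.0183), Mib1 (-0.269, 0.0135) and Furin (0.248, 0.0214) gained one, as did Mib1 without WT replicate 3 (-0.32, 0.024).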
